A study of Mus musculus with 4 samples.

Results

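Polycomb repressive complex 2 (PRC2) places methyl groups on lysine 27 of histone H3, a mark of silenced genes. Its catalytic subunit is EZH2 or its paralogue EZH1, which are active only when bound to EED, which reads the methylated lysine, and SUZ12, which holds the complex together. The histone-binding proteins RBBP4 and RBBP7 complete the core, and partners such as MTF2, PHF19 and JARID2 bring it to chromatin, while the demethylase KDM6B removes the mark. In regulatory T cells, the CD4 T cells that restrain immune responses and carry Foxp3, EZH2 is induced on activation and is known to be needed for stable Foxp3-dependent repression.

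The 10 genes described here were Ezh2, Ezh1, Eed, Suz12, Rbbp4, Rbbp7, Jarid2, Mtf2, Phf19 and Kdm6b, chosen by symbol among 50600 annotated genes, and each matched 1 gene identifier. They were measured by RNA-seq in 4 libraries of regulatory T cells from mouse strain C57BL/6NJ, labelled as biological replicates 1 to 4 of 1 group. The labels name no treatment, genotype change, sex or age, give 1 donor identifier for all 4, and link a protocol by which CD4 T cells were differentiated in culture. Sample names inside the files contain activated and 72h. The data went against the single donor: Xist was at 173 and 199 TPM and Uty at 0.0171 and 0.0396 TPM in replicates 1 and 2, whereas Xist was below 1 TPM and Uty was at 9.77 and 10.8 TPM in replicates 3 and 4. The cells of replicates 1 and 2 and those of replicates 3 and 4 thus did not come from the same animal. The number of animals is not stated, and each p-value rests on the spread over these 4 libraries alone.

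The libraries held 51460018 to 121477975 gene counts, and the lowest count of any of the 10 genes in any library was 1802. Markers of the labelled cell type were high, with Foxp3 at 408 to 471 TPM (transcripts scaled to a fixed total per library, after division by gene length), Il2ra at 1948 to 2491 TPM and Cd4 at 634 to 671 TPM. Of 11 markers of other blood cells, Lyz2, Ncr1 and Hbb-bs had 0 counts in every library, which allows up to 0.0583 CPM (counts scaled to a fixed total without length) in the shallowest library at a floor of 3 counts. The highest of the 11 was the B cell gene Cd79a, at 0.346 to 1.18 TPM. Replicate 2 stood apart by base composition, since genes of low GC content were higher in it.

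The start regions of the genes are shown first, because E2F factors, which switch on genes as cells enter the cycle, are known regulators of EZH2. The windows run from 250 bases before to 50 bases after the listed start in RefSeq on GRCm38.p6, of which 9 of the 10 genes had at least 1. Capitals mark the E2F words TTTCCCGC, TTTCGCGC, TTTGCCGC or TTTGGCGC and the word CCAAT, each on either strand. The first 3 sequences are those that held an E2F word, and that of Ezh1 held neither word.
Ezh2 (chr6:47594981-47595280, minus strand): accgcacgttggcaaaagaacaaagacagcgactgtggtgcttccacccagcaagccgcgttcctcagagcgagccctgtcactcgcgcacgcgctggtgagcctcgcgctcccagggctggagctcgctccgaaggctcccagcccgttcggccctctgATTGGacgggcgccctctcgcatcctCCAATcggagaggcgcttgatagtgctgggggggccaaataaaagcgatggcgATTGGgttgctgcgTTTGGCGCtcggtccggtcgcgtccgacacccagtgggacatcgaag
Suz12 (chr11:79992856-79993155, plus strand): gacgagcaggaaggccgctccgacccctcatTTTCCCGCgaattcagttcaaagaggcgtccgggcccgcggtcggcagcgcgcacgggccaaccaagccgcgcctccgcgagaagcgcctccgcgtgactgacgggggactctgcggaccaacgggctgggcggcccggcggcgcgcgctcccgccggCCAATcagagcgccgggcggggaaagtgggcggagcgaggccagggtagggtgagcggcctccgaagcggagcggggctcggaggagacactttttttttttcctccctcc
Phf19 (chr2:34913927-34914226, minus strand): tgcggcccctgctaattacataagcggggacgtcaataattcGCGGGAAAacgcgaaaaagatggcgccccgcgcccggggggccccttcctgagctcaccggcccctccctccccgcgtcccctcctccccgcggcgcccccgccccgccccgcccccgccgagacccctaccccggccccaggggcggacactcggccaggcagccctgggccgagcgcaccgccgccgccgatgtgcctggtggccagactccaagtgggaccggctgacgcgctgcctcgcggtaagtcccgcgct
Ezh1 (chr11:101226414-101226713, minus strand): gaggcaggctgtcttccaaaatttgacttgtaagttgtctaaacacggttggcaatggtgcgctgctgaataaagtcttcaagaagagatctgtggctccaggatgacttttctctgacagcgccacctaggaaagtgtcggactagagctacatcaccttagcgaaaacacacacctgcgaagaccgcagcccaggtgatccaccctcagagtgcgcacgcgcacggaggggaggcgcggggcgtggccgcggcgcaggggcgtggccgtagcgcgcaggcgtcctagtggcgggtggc

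An E2F word was thus found at 3 of 9 genes, against 2.26% of 32851 windows of the same length in the whole table. Jarid2 and Mtf2 had 2 windows each, and either could hold a word. With the listed start as position 0, the E2F word began at position 3 in Ezh2, -219 in Suz12 and -208 in Phf19. CCAAT was found at 7 of 9 genes, against 37.4% of all windows, and at 3 places in Ezh2. The word CCGGAAG of ETS factors (8.86% of all windows) and the NRF1 motif (0.971%) were found at none of the 9. A match is only a run of letters in these windows and says nothing of binding.

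The catalytic subunits were unequal. Ezh2 (ENSMUSG00000029687.16, mm10 chromosome 6, 47530139 to 47595341) had 77.2, 100.4, 76.8 and 83.5 TPM in replicates 1 to 4. Ezh1 (ENSMUSG00000006920.14, chromosome 11, 101191115 to 101226463) had 17.4, 18.1, 16.9 and 16.1 TPM in the same libraries. The lowest library of Ezh2 thus lay far above the highest of Ezh1. The mean levels were 84.5 ± 11.0 TPM for Ezh2 and 17.1 ± 0.876 TPM for Ezh1 (SD, n = 4). Within libraries Ezh2 exceeded Ezh1 by 2.29 ± 0.15 on the log2 scale of TPM + 0.1, or 4.88-fold, in 4 of 4 libraries. In these bulk samples a lower share of expressing cells and less RNA per cell cannot be told apart.

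By level per length, Ezh2 made up 81.6%, 84.7%, 81.9% and 83.9% of the sum of both paralogues in replicates 1 to 4, a mean of 83.0 ± 1.50% (SD, n = 4). For Ezh2 against Ezh1, a two-sided exact sign-flip test gave p = 0.125, with 2 of 16 sign assignments as large, the smallest that 4 libraries allow. After Benjamini-Hochberg adjustment over all 45 pairs of the 10 genes the exact p was 0.131, so no pair could pass a threshold of 0.05.

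**Figure D1:**
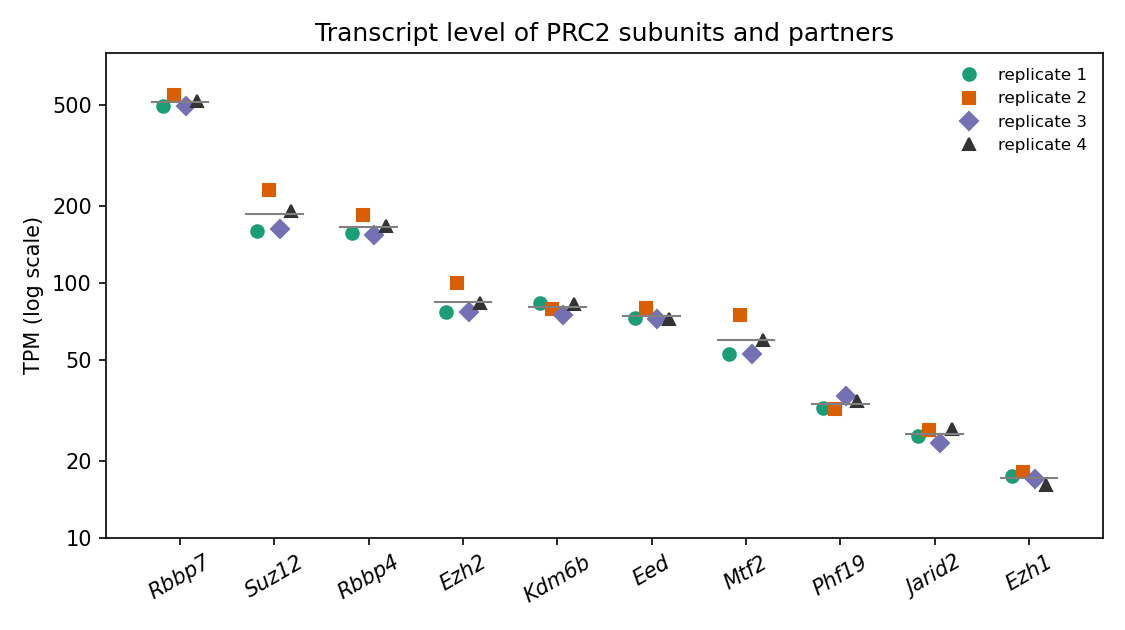
TPM of each gene on a log axis, with a point per library and a grey line at the mean of the 4 libraries. Rbbp7 stands highest, Ezh1 lowest, and replicate 2 lies above the other libraries for Suz12, Ezh2 and Mtf2.

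The 2 scaffold partners of the catalytic subunit stood on different levels. Suz12 (ENSMUSG00000017548.15, chromosome 11, 79993106 to 80034123) had 161, 231, 162 and 191 TPM in replicates 1 to 4. Eed (ENSMUSG00000030619.9, chromosome 7, 89954654 to 89980983) had 73.0, 79.7, 72.3 and 72.6 TPM. Suz12 was above Eed in every library, while Eed stayed within a narrow range and Suz12 was highest in replicate 2. The mean was 186 ± 33.0 TPM for Suz12 and 74.4 ± 3.57 TPM for Eed (SD, n = 4). Ezh2 lay close to Eed in TPM, above it by 0.18 ± 0.12 on the log2 scale in 4 of 4 libraries (exact sign-flip p = 0.125). The ratio of their TPM was 1.06, 1.26, 1.06 and 1.15. That closeness rested on gene length, since without division by length Ezh2 was at 166 ± 19.5 CPM and Eed at 83.7 ± 3.13 CPM (SD, n = 4).

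The histone-binding subunits were the most abundant pair. Rbbp7 (ENSMUSG00000031353.13, chromosome X, 162760402 to 162779092) had 495.5, 549, 498 and 520.5 TPM in replicates 1 to 4. Rbbp4 (ENSMUSG00000057236.10, chromosome 4, 129307100 to 129335370) had 157, 185, 155 and 168 TPM. Rbbp7 was above Rbbp4 in every library, and both were highest in replicate 2. There the normalised log2 deviation from the mean of the 4 libraries was 0.05 for Rbbp7 and 0.12 for Rbbp4, beside 0.06 and 0.08 for the trend of all tested genes over GC content and length. The means were 516 ± 25.1 TPM for Rbbp7 and 166 ± 13.7 TPM for Rbbp4 (SD, n = 4), a log2 difference of 1.64 ± 0.05 in 4 of 4 libraries (exact sign-flip p = 0.125).

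That difference rested on gene length, because counts not divided by length were nearly equal, with Rbbp7 at 50.9 ± 0.831% of the sum of both (SD, n = 4). The merged exons of Rbbp4 span 8744 bases and those of Rbbp7 span 2909. The paralogues did not share any 50-base word of annotated transcripts, so a stretch of that length could be told apart between them. Words shared with other genes, counting both strands, made up 17.2% of those of Rbbp4, spread over 20 genes, and 11.2% of those of Rbbp7, with the processed pseudogene Gm6382 first. Their counts are therefore less certain than those of the other 8 genes, of which 0% to 5.82% of words were shared. RBBP4 and RBBP7 also belong to deacetylase and chromatin assembly complexes, so that their transcript level need not follow that of PRC2.

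Among the 3 of the 10 genes that encode partners bringing PRC2 to chromatin, Mtf2, a reader of methylated lysine 36 that binds unmethylated CpG islands, was highest. Mtf2 (ENSMUSG00000029267.17, chromosome 5, 108065674 to 108109004) had 52.9, 74.6, 52.6 and 60.0 TPM in replicates 1 to 4. Its paralogue Phf19 (ENSMUSG00000026873.9, chromosome 2, 34893757 to 34914026) had 32.4, 31.9, 35.9 and 34.3 TPM. Mtf2 was above Phf19 in every library, but the libraries were ordered differently, since replicate 2 was highest for Mtf2 and lowest for Phf19. Jarid2 (ENSMUSG00000038518.15, chromosome 13, 44729474 to 44921643), a catalytically inactive Jumonji protein that binds and stimulates PRC2, had 25.1, 26.6, 23.5 and 26.7 TPM.

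The means of these partners were 60.0 ± 10.3 TPM for Mtf2, 33.6 ± 1.85 TPM for Phf19 and 25.5 ± 1.49 TPM for Jarid2 (SD, n = 4). Mtf2 exceeded Phf19 by 0.82 ± 0.29 on the log2 scale and Phf19 exceeded Jarid2 by 0.40 ± 0.15, each in 4 of 4 libraries (exact sign-flip p = 0.125 for both). Mtf2 took between 59.4% and 70.0% of the sum of both Polycomb-like paralogues by level per length. Without length normalization the order of Phf19 and Jarid2 turned round, with a log2 difference of -0.54.

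Kdm6b (ENSMUSG00000018476.7, chromosome 11, 69398508 to 69413675), whose product removes the methyl groups that PRC2 adds, had 83.7, 79.0, 75.1 and 83.0 TPM in replicates 1 to 4. The 4 libraries lay within 1.11-fold of each other, around a mean of 80.2 ± 3.98 TPM (SD, n = 4). Ezh2 and Kdm6b overlapped: Ezh2 was lower in replicate 1 and higher in the other 3 libraries, with log2 differences of -0.12, 0.34, 0.03 and 0.01. Their mean difference was 0.07 ± 0.20 (SD, n = 4; exact sign-flip p = 0.625), and without replicate 2 it was -0.025. Kdm6b and Eed also overlapped, at 0.11 ± 0.10 (exact sign-flip p = 0.25).

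In order of mean TPM the genes were Rbbp7, Suz12, Rbbp4, Ezh2, Kdm6b, Eed, Mtf2, Phf19, Jarid2 and Ezh1. Of the 45 pairs, 43 had 1 direction in 4 of 4 libraries, and the exceptions were those of Kdm6b with Ezh2 and with Eed. The closest neighbours with 1 direction were Suz12 and Rbbp4, which differed by 0.15 ± 0.13 (SD, n = 4). All 10 genes reached 1 TPM in every library, against 48.9% of 21764 protein-coding genes. Among the 10640 protein-coding genes that did so, mean levels of the 10 ran from percentile 32.3 for Ezh1 and 42.4 for Jarid2 to 91.0 for Suz12 and 97.7 for Rbbp7, with Ezh2 at 76.7. The 10 genes together took 0.171% to 0.198% of all counts.

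The order depended on which length a gene was given. The authors' lengths merge all annotated exons, and for Ezh2 these sum to 6678 bases, against 2787 for its principal transcript. Ezh2 was the 1 of the 10 whose principal transcript spans under 0.5 of the merged length, as did 18.2% of protein-coding genes at 1 TPM. With principal transcript lengths Ezh2 stood at 142 ± 18.8 TPM, Eed at 96.6 ± 4.85 TPM and Rbbp4 at 231 ± 19.3 TPM (SD, n = 4). Kdm6b then lay at 58.7 ± 2.81 TPM, below Ezh2, which exceeded it by 1.26 on the log2 scale, and below Eed, with a difference of -0.72. Suz12 minus Rbbp4 was -0.66, and Suz12 exceeded Ezh2 by 0.05, against 1.13 with merged lengths. The log2 difference of Rbbp7 and Rbbp4 was 1.02. Rbbp7 stayed first and Ezh1 last, and Ezh2 made up 86.8 ± 1.22% of the sum with Ezh1. Which transcripts were present was not measured here.

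**Figure D2:**
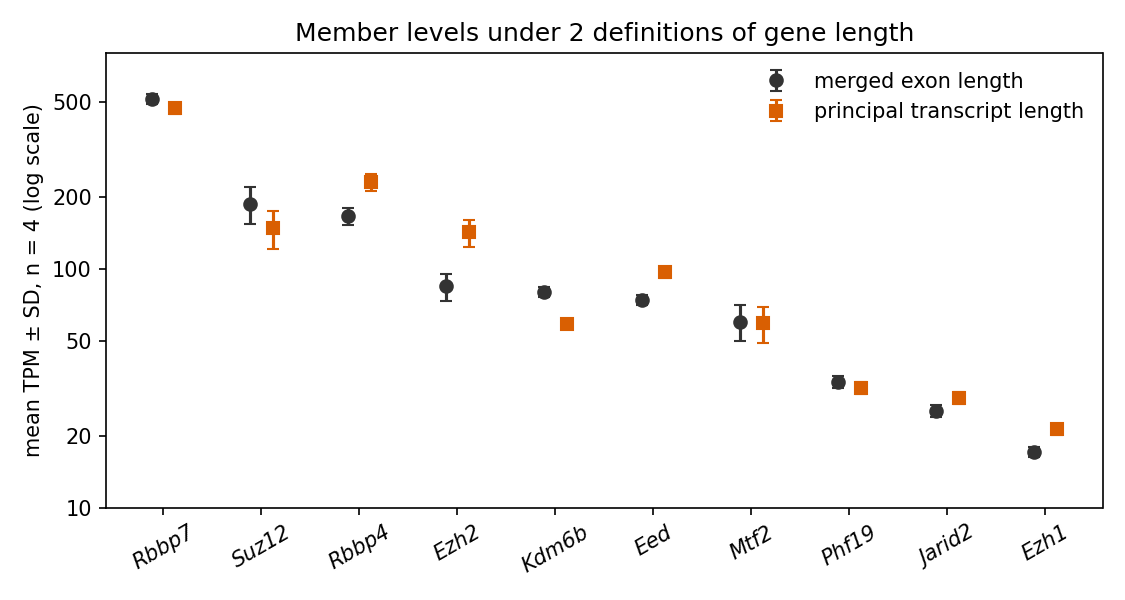
Mean TPM with SD over 4 libraries on a log axis, computed with merged exon lengths (circles) and with principal transcript lengths (squares). Ezh2, Eed and Rbbp4 rise and Kdm6b and Suz12 fall under principal lengths, so that 5 of the 10 genes keep their rank.

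The only test across genes that 1 group allows asks whether a gene varied between libraries more than others of its abundance. None of the 10 genes was called by an F test on edgeR's quasi-likelihood dispersions (lowest adjusted p = 0.965 after Benjamini-Hochberg adjustment over 13625 genes). With 4 libraries, a gene that is not called may still have varied more than others of its abundance. This F test was computed here from edgeR's fit, and p-values given below as edgeR's come from it. The background was 1 called gene, Xist, or 0.00734%. Before adjustment, edgeR gave 2 of the 10 a p under 0.05, Suz12 and Mtf2 (adjusted p = 0.965 for both), against 4.7% of all tested genes. Without replicate 2 only Suz12 was left (edgeR adjusted p = 0.848), against 5.6% of tested genes. Neither limma nor the dispersion outliers of DESeq2 held any of the 10.

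The coefficient of variation of normalised CPM was 15.6% for Suz12, 15.1% for Mtf2 and 10.9% for Ezh2, and for the other 7 genes it ran from 2.95% for Rbbp7 and 3.00% for Eed to 6.15% for Rbbp4 and 7.25% for Phf19. Counting error alone was at most 2.36% for any gene in any library. That was the value of Ezh1, whose coefficient of variation was 4.39%. The part of depth in these values was not tested. Over the 10 genes the median coefficient of variation of TPM was 5.67%, beside 9.65% over all tested genes, which were less abundant by median. Over protein-coding genes at 1 TPM in every library it was 7.82%. The median ratio of a gene's dispersion to that of genes of like abundance was 0.822 for the 10 genes and 0.878 for all tested genes. The ratio was 6.13 for Suz12, 5.27 for Mtf2 and 3.11 for Ezh2, and for the other 7 genes it ran from 0.205 for Eed to 1.01 for Phf19.

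**Figure D3:**
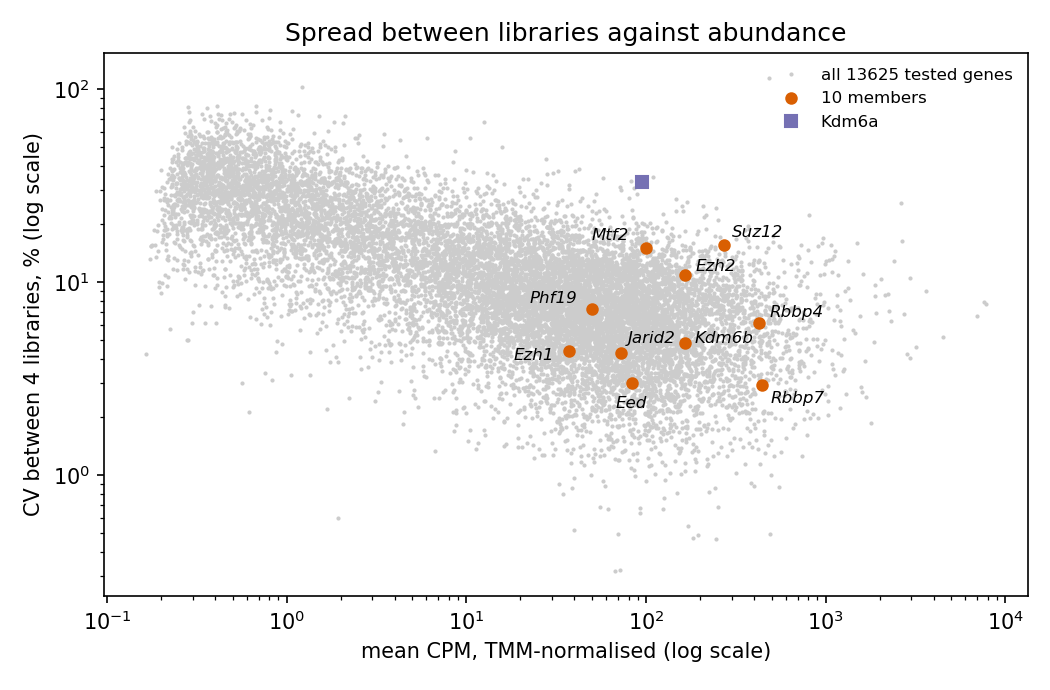
Coefficient of variation between the 4 libraries against mean CPM after TMM normalisation, both on log axes, for all tested genes (grey), the 10 genes (orange) and the demethylase gene Kdm6a (square). Suz12, Mtf2 and Ezh2 have the highest values among the 10, from 10.9% to 15.6%.

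Suz12, Mtf2 and Ezh2 had their highest level in the same library. In replicate 2 their normalised log2 level lay above the mean of the 4 libraries by 0.29 for Suz12, 0.29 for Mtf2 and 0.22 for Ezh2. In replicate 1 the deviations were -0.19, -0.16 and -0.11, and in replicate 3 -0.15, -0.14 and -0.10. The ratio of Mtf2 to Suz12 in TPM was therefore almost the same in every library, at 0.329, 0.323, 0.324 and 0.313. That of Eed to Suz12 was not, at 0.454, 0.345, 0.445 and 0.379. Suz12 with Mtf2 was the pair with the smallest SD of the log2 difference among all 45, at 0.029. Rbbp7 with Eed followed at 0.034, and Rbbp7 with Rbbp4 and Eed with Ezh1 at 0.048 each.

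Of the 10 genes, 7 had their highest CPM in replicate 2, against 37.6% of all tested genes. The same library held higher levels of genes with low GC content in general. Suz12 transcripts were 41.6% GC, those of Mtf2 38.2% and those of Ezh2 44.4%, while the median tested gene was at 49.7%. In replicate 2, tested genes within 1 percentage point of their GC content had median deviations of 0.13, 0.20 and 0.09. Among those genes Suz12 stood at percentile 88.4, Mtf2 at 76.5 and Ezh2 at 82.2 in that library.

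Removing the fitted dependence on GC content and length from every library, an alternative added after seeing the data, left edgeR adjusted p values of 0.945 for Suz12, 0.986 for Mtf2 and 0.986 for Ezh2. Before adjustment Suz12 was then the 1 of the 10 under 0.05, against 5.19% of tested genes, and none of the 10 was called, with the background again at 0.00734%. Phf19, at 53.9% GC, deviated by -0.11 in replicate 2, where genes of its GC content had a median of -0.08. Kdm6b, the gene richest in GC at 59.6%, deviated by -0.06 there, against a median of -0.13 for genes like it. The part of base composition in these differences beyond these values was not tested.

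**Figure D4:**
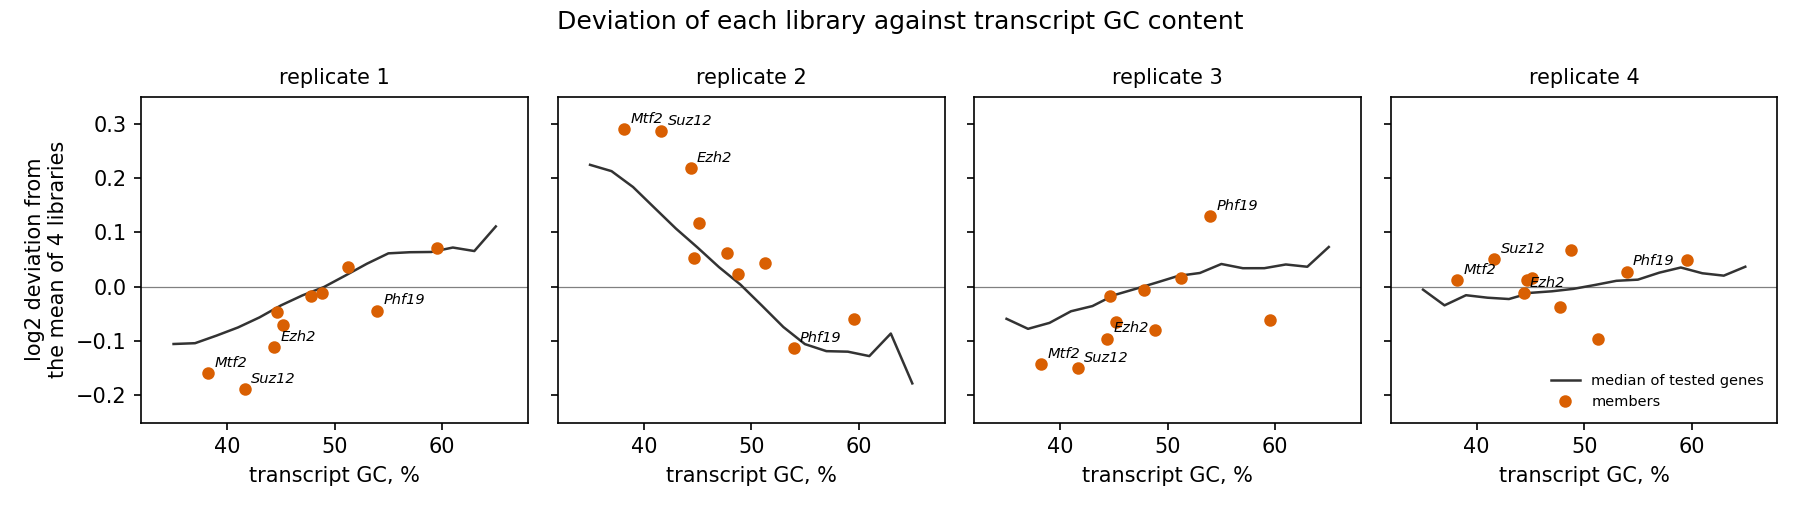
Log2 deviation of each library from the mean of the 4 libraries against transcript GC content, 1 panel per replicate, for the 10 genes (orange) and as the median over tested genes in bins of GC content (line). The line falls with GC content in replicate 2 and rises in replicates 1 and 3, and in these 3 libraries Suz12, Mtf2 and Ezh2 lie beyond it in the same direction.

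The relatives of Kdm6b, which are the demethylase gene Kdm6a and Uty, lie on the sex chromosomes. Demethylase activity was not measured here. Kdm6a, on chromosome X, is known to escape X inactivation in the mouse, and Uty is its Y-linked relative. Kdm6a had 45.4, 57.1, 28.3 and 28.8 TPM in replicates 1 to 4. Replicates 1 and 2, in which Uty was near 0 and Xist, which silences an X chromosome, was high, were thus the higher ones for Kdm6a. In replicates 3 and 4 Xist was at 0.592 and 0.758 TPM. Kdm6a, at 42.5% GC, deviated by 0.54 on the log2 scale in replicate 2, where the trend over GC content and length was 0.13.

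Kdm6a was under 0.05 before adjustment and had an adjusted p = 0.671 in edgeR's quasi-likelihood test, so it was not called. Without the filter on low counts the adjusted p was 1.44e-05, where 0.424% of genes were called, and without replicate 2 it was 0.0348, where 0.129% were called. Over the other alternatives with a p it ran from 0.253 to 0.955, and DESeq2 marked Kdm6a as a dispersion outlier, as it did 0.316% of genes. Kdm6b lay above Kdm6a in all 4 libraries. Rbbp7, also X-linked, did not follow Kdm6a: its 4 libraries differed by 1.11-fold at most. The part of the sex chromosomes in the spread of Kdm6a was not tested.

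**Figure D5:**
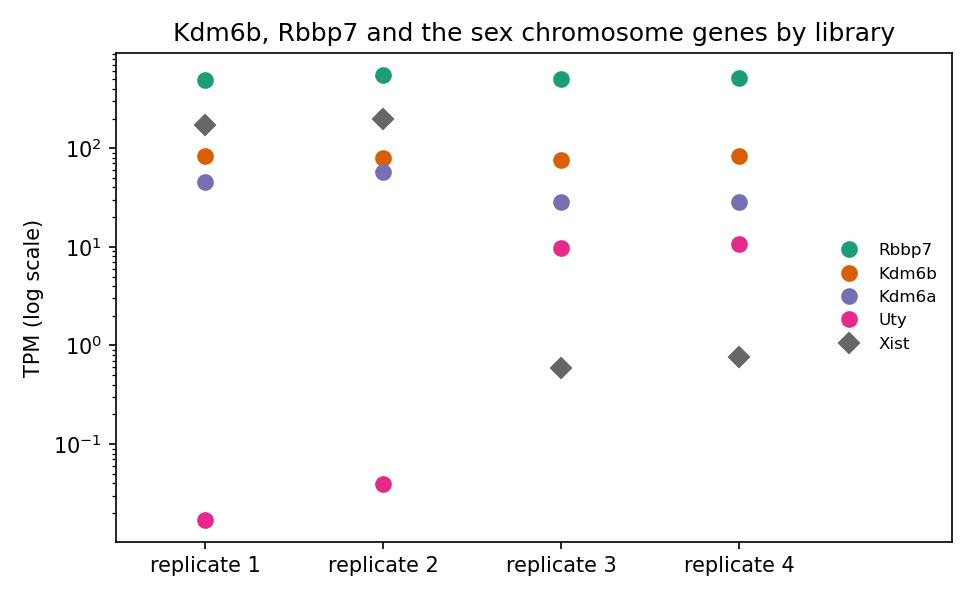
TPM on a log axis in each of the 4 libraries for Rbbp7, Kdm6b, Kdm6a, Uty and Xist. Rbbp7 and Kdm6b are level across libraries, Kdm6a is higher in replicates 1 and 2, and Uty reaches 9.77 and 10.8 TPM in replicates 3 and 4, where Xist is below 1 TPM.

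Further genes linked to PRC2, taken from a list of 5 that holds subunits, partners and an inhibitor, had unequal levels. Epop, which links the complex to elongin, was at 145 ± 6.80 TPM (SD, n = 4), and Aebp2, a partner of the complex with Jarid2, at 115 ± 10.8 TPM. With principal transcript lengths their order turned round, with Epop at 101 ± 4.62 TPM and Aebp2 at 213 ± 20.4 TPM. Phf1, the third Polycomb-like paralogue, was at 20.2 ± 1.59 TPM, below Mtf2 and Phf19. The corepressor gene Lcor was lowest of those detected, at 5.41 ± 0.512 TPM. Ezhip, an inhibitor of EZH2 in germ cells, had 0 counts in all 4 libraries. None of the 4 tested was called variable by edgeR's quasi-likelihood test, also none at an unadjusted p under 0.05, and neither limma nor DESeq2 called one.

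PRC1, which ubiquitinates histone H2A, was represented by 22 genes, and all 22 reached 1 TPM in every library. With merged exon lengths their median was 34.9 TPM, beside 77.3 TPM for the 10 genes and 32.5 TPM for protein-coding genes at 1 TPM. The corepressor gene Bcor (170 ± 6.48 TPM; SD, n = 4), the Polycomb RING finger gene Pcgf5 (113 ± 12.8 TPM) and the Polyhomeotic gene Phc2 (73.1 ± 5.36 TPM) were highest with merged exon lengths, and the chromodomain gene Cbx8 (8.26 ± 1.01 TPM) was lowest. The place of Pcgf5 is uncertain, because its merged length of 1659 bases in GENCODE M13 is shorter than its principal transcript of 6443 bases in M21. Its fragments were counted over the M13 exons only. The 20.4 ± 2.34 TPM obtained with the M21 length is therefore not a like comparison. The catalytic RING gene Rnf2, named after its values were seen, was highest in replicate 2 like Ezh2, with 34.4, 48.0, 31.8 and 39.7 TPM. At 39.5% GC, it deviated by 0.30 on the log2 scale in that library, where the trend over GC content and length was 0.15. It was the 1 of the 22 that edgeR gave an unadjusted p under 0.05 (adjusted p = 0.965), and none of the 22 was called by edgeR, limma or DESeq2. In the deubiquitinase that opposes PRC1, Asxl1 was at 108 ± 4.71 TPM, Bap1 at 92.9 ± 2.23 TPM and Asxl2 at 19.4 ± 2.39 TPM, or 48.7 ± 6.09 TPM with the principal transcript length of Asxl2. None of these 3 was called variable by edgeR, limma or DESeq2, and none was under 0.05 before adjustment by edgeR.

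Genes classically silenced by Polycomb were near the limit of detection. Of 48 Hox and Pax genes, 2 reached 1 TPM in every library and 19 had 0 counts in all 4. Hoxb4 was highest at 3.81 ± 0.786 TPM (SD, n = 4), followed by mean level by Hoxd4 at 1.22 ± 0.243 TPM and Hoxb3 at 1.17 ± 0.153 TPM. Of the 4 tested, none was called variable by edgeR, limma or DESeq2, and none was under 0.05 before adjustment by edgeR. Histone marks were not measured, so these levels do not show that PRC2 holds the genes silent.

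Helper T cell genes reported to be bound by EZH2 or raised in its absence differed widely. Of 10 such genes, 4 reached 1 TPM in every library, namely Gata3 (49.4 ± 7.11 TPM; SD, n = 4), Tbx21 (22.7 ± 5.23 TPM), Eomes (3.34 ± 0.264 TPM) and Il13 (3.04 ± 1.88 TPM). The lowest was Cdkn2a, a classical target that encodes cell cycle inhibitors, with 0.0239, 0.142, 0 and 0 TPM in replicates 1 to 4. Of the 5 tested, none was called variable by edgeR, limma or DESeq2, and Gata3, Tbx21 and Il13 had an unadjusted p under 0.05 by edgeR, against 4.7% of all tested genes. Tbx21 was low in replicate 3, with 23.2, 26.6, 15.2 and 26.0 TPM in replicates 1 to 4. Il13 and Gata3 were highest in replicate 1, at 5.78 and 56.4 TPM.

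The protein-coding genes closest in level to Ezh2 over the 4 libraries, by the root mean square of the log2 difference, were Mtmr6 (0.0305) and Arih1 (0.0387). Those closest to Kdm6b were Scamp2 (0.0254), Coro7 (0.0302) and Mepce (0.0340). Likeness here covers both level and library pattern, over 4 libraries of 1 group.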

How the data were processed

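RNA-seq counts were taken for 4 libraries. Per the file headers, the authors made raw fragment counts per gene with featureCounts 1.4.6-p4 on GENCODE M13 exons (assembly mm10 per the labels), with both ends mapped and reverse-stranded setting 2. No option for multi-mapped or multi-overlapping reads is listed. The aligner version was not given in the labels or headers. The assay is labelled total RNA-seq, whereas its linked library protocol is for poly(A)+ RNA. The deposited files also give merged exon lengths, from which TPM was computed here. Symbols matched 50376 of 50600 identifiers.

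Gene pairs were compared as differences of log2(TPM + 0.1) within libraries by an exact two-sided sign-flip test. Variability was fitted with edgeR 4.0.16 (R 4.3.3): TMM normalization, filterByExpr and an intercept-only quasi-likelihood fit with robust prior. The F test itself was computed here, on each gene's dispersion over the trended prior. It used the largest prior degrees of freedom (6.54) for every gene, with the threshold at an adjusted p under 0.05. The limma p-values were F tests computed here in the same way from its variances. The edgeR procedure was tested on simulated data. DESeq2 1.42.0, limma 3.58.1, other filters and normalizations, and each replicate left out were alternatives. GC content and principal transcripts (APPRIS) came from GENCODE M21, and 50-base words were compared over its transcripts. Named genes were all 10 members, the 3 highest, the lowest and any called gene of each list, markers and the 3 genes closest to Ezh2 and to Kdm6b. A few genes within the rule are left out of the text, and Rnf2 and Xist were added. Members and lists were chosen with earlier results of these data known. Counting errors cover counting only. Python 3.11.15, pandas 2.3.3 and matplotlib 3.10.9 were used.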

Additional observations from a re-analysis of the deposited data

Results flagged for a closer look

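Of 25 sets of 4 values examined, 2 had a library far from the others, where chance gives about 1 in 20. Eed stood at 79.7 TPM in replicate 2, against 72.3 to 73.0 TPM in the other libraries. The log2 difference of Rbbp4 and Ezh2 was 0.88 in replicate 2, against 1.01 to 1.02 in the other libraries.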

How the results depend on the processing

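No paired analysis was possible because there was only 1 group. None of the 10 genes was called variable under any alternative run. The number of all genes called was 98 without the filter and 43 by DESeq2 dispersion outliers, against 1, and leaving out each replicate gave 1 to 18, with 18 without replicate 2 and 2 without replicate 1. The share of Ezh2 was 81.4% without length normalization and 86.8% with principal transcript lengths, against 83.0%, and 82.5% to 83.5% with each replicate left out. Of the 10 ranks, 4 remained without length normalization and 5 with principal lengths, and 8 to 10 with each replicate left out. Without length normalization, differences turned to -0.67 for Suz12 minus Rbbp4, -0.25 for Eed minus Mtf2 and -0.54 for Phf19 minus Jarid2. With principal lengths they turned to -0.66 for Suz12 minus Rbbp4 and -0.72 for Kdm6b minus Eed. Ezh2 minus Kdm6b ran from -0.025 (without replicate 2) to 0.13 with each replicate left out. These turns follow from the lengths used, except the last, whose cause was not tested. A pseudocount of 1 turned none of the 45 pairs. Precision is limited by the number of libraries, 4, and the part of depth in it was not tested.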

Other observations

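The other complexes that hold Rbbp4 or Rbbp7 were abundant. All 14 genes of deacetylase, remodelling and chromatin assembly complexes reached 1 TPM in every library, with a median of 157 TPM. The remodeller gene Chd4 (436 ± 17.2 TPM; SD, n = 4), Mta2 (321 ± 7.67 TPM) and Mbd3 (295 ± 23.1 TPM) were highest, and the assembly factor gene Chaf1b was lowest (28.3 ± 0.992 TPM, or 51.7 ± 1.73 TPM with its principal transcript length). None was called variable by edgeR's quasi-likelihood test, by limma or by DESeq2, and none had an unadjusted p under 0.05 by edgeR.

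Among enzymes of other repressive marks, 7 DNA methylation genes had a median of 32.4 TPM, with Uhrf1 (321 ± 23.2 TPM; SD, n = 4), Dnmt1 (305 ± 11.3 TPM) and Dnmt3a (57.4 ± 4.45 TPM) highest and Tet1 lowest (1.58 ± 0.119 TPM). The 11 histone deacetylases had a median of 34.6 TPM, with Hdac7 (432 ± 24.5 TPM) and Hdac1 (176 ± 10.7 TPM) highest and Hdac9 lowest (0.0485 ± 0.0111 TPM). No gene of either list was called variable by edgeR, limma or DESeq2, and 0 were under 0.05 before adjustment by edgeR. The median of the 10 PRC2 genes and partners was 77.3 TPM. All of these medians use merged exon lengths and were not computed with principal transcript lengths. The genes at the medians of these lists, Tet3 and Hdac5, had 63.9 ± 1.34 TPM and 56.3 ± 2.48 TPM (SD, n = 4) with principal transcript lengths.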
